A study of Rattus norvegicus with 16 samples.

Results

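Matrix metalloproteinases (Mmp), the related ADAM and ADAMTS proteases and their Timp inhibitors were followed in the proximal femur of 4 inbred rat strains. The members were the genes whose probe sets carry a single symbol that starts with Mmp, Timp, Adam or Adamts followed by a digit, each represented by its probe set with the highest mean log2 signal over all arrays. This gave 51 genes from 74 probe sets, out of 14217 genes with a single symbol: 17 Mmp, 18 Adam, 12 Adamts and 4 Timp genes. The study measured total RNA of this upper part of the thigh bone, which holds the femoral head and neck, on 16 arrays, 4 for each of the strains Fischer 344 (F344), Lewis (LEW), Copenhagen 2331 (COP) and Dark Agouti (DA). All animals were 4 weeks old and untreated as far as the labels tell; sex was not given, nor whether an array held 1 animal or a pool. The series asks which genes differ between F344 and LEW at a chromosome 4 locus found in their F2 offspring. Because the labels do not say that replicates were separate animals, a p-value here reflects only how far these arrays spread, which may be technical.

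Metalloproteinases of these families hold a zinc ion in the active site and are made as inactive proenzymes. Mmp enzymes together cut most proteins of the extracellular matrix; in the growing long bone they remove cartilage ahead of new bone and open the way for vessels and marrow. ADAM proteins are anchored in the membrane, where the active ones release the outer parts of other membrane proteins, while ADAMTS proteins are secreted, several of them cutting aggrecan and versican, the large proteoglycans of cartilage. The 4 Timp proteins bind the active site and block it.

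Of the rat Mmp genes, 10 lie side by side on chromosome 8, in the order Mmp13, Mmp12, Mmp1b, Mmp3, Mmp1, Mmp10, Mmp8, Mmp27, Mmp20 and Mmp7 in the RefSeq annotation of assembly GRCr8. Of these 10, Mmp13, Mmp12, Mmp3, Mmp10, Mmp8 and Mmp7 had a named probe set. The promoters of 4 of them are shown because these are the tested genes among the neighbours, and 3 of them were called. Each line gives the 150 bases before the annotated start of transcription, 5′ to 3′ on the plus strand, from RefSeq, GRCr8. Capitals mark matches to the AP-1 motif TGANTCA, the RUNX motif TGTGGT or its reverse complement ACCACA, and the TATA motif TATAAA or its reverse complement TTTATA.
Mmp13, chr8:12782679-12782828: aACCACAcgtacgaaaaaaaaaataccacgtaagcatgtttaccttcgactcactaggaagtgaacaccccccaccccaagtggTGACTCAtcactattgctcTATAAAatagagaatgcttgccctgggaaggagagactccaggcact
Mmp12, chr8:12866502-12866651: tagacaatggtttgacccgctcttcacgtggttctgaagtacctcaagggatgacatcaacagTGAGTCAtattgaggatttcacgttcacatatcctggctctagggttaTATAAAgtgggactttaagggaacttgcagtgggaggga
Mmp3, chr8:12925131-12925280: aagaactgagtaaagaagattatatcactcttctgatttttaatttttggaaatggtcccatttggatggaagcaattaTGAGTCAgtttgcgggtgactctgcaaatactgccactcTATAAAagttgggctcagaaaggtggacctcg
Mmp8, chr8:13008740-13008889: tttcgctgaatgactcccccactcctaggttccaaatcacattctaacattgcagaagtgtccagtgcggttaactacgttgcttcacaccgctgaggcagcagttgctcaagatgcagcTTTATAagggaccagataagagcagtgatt

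Motifs were searched in the window of 300 bases that RefSeq gives around each start (250 before it and 50 after), on both strands, for the 30 members with such an entry and for 27457 genes in all. The AP-1 motif, bound by Fos and Jun proteins, was found in 6 members, namely Mmp13, Mmp12, Mmp3, Mmp10, Mmp7 and Adam19, and in 7.33% of all windows. In Mmp13 it began 66 bases before the start, in Mmp12 87, in Mmp3 71 and in Mmp10 61. The RUNX motif was found in Mmp13 alone among the members, 149 bases before the start, and in 16.9% of all windows. The TATA motif was found in 9 members, among them all 6 chromosome 8 Mmp members, and in 14.3% of all windows. An ETS motif (AGGAAG) was found in 11 members and 34.3% of all windows, a GC box (GGGCGG) in 17 members and 34.9%, and an NF-kB motif (GGGANTTCC) in 0 members and 1.73%. Each motif was counted on its own, whether or not it overlapped another, and a match is a description of these letters only. The reference comes from the BN strain, and the 4 strains measured here can differ from it.

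A gene was tested if the mean log2 signal of its probe set reached the 40th percentile of all probe sets, a signal of 174, which 34 of the 51 members did: 12 Mmp, 9 Adam, 9 Adamts and 4 Timp genes. No tested member had a strain mean under that level. The 17 others were Mmp7, Mmp10, Mmp11, Mmp19, Mmp28, Adam2, Adam3a, Adam4, Adam6, Adam7, Adam11, Adam18, Adam22, Adam32, Adamts6, Adamts16 and Adamts19. Of these, 11 stayed under the level on all 16 arrays, and 3 (Adam4, Mmp11 and Mmp19) had at least 1 strain mean above it. Adam2, Adam3a, Adam7, Adam18 and Adam32 are known from sperm or the male reproductive tract. Signals of different probe sets depend on their probes as well as on the amount of RNA, so the order of genes in the plot of signals by family is a description of the array.

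**Figure D1:**
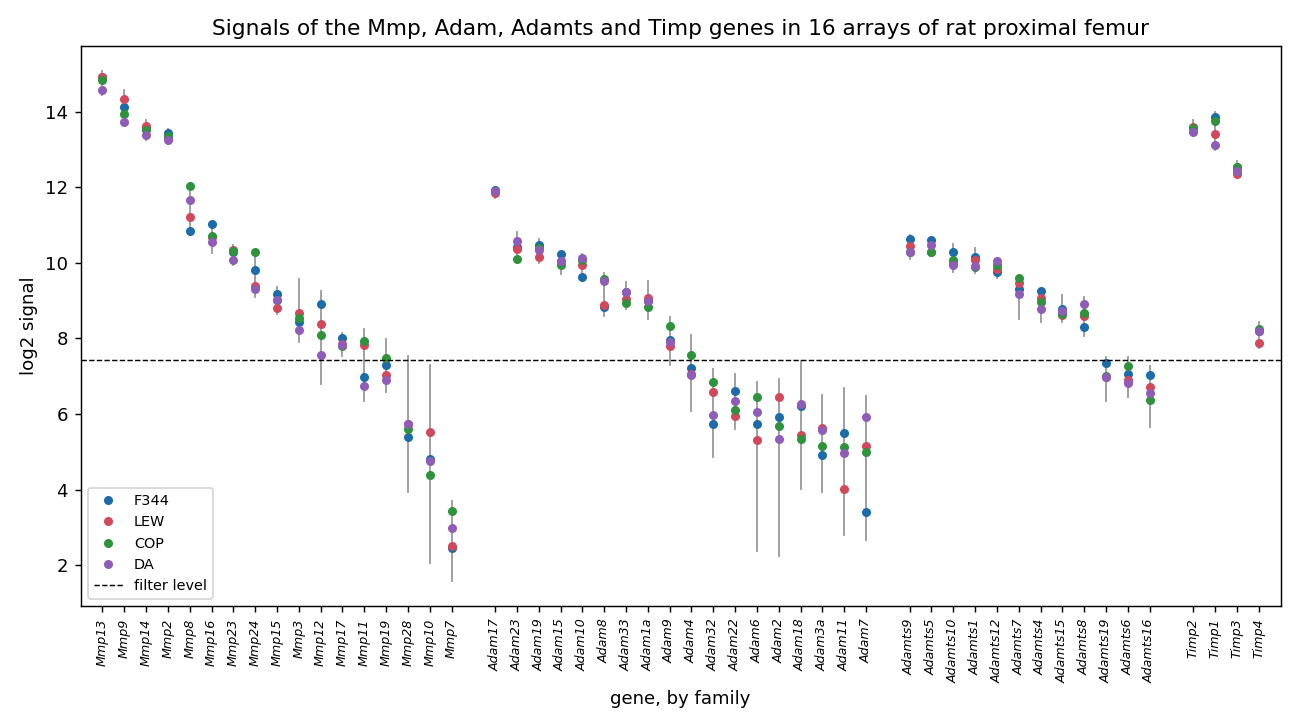
Mean log2 signal of each of the 51 genes in each strain (coloured points, 4 arrays each), with the range over all 16 arrays as a grey line and the filter level of 174 as a dashed line. Mmp13, Mmp9, Mmp14, Mmp2, Timp1 and Timp2 give the brightest probe sets, the 4 strain means of most tested genes lie close together, and 17 genes lie under the filter level.

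The arrays of a strain were not equally alike. The median SD of log2 signals over the tested members was 0.089 in F344, 0.18 in LEW, 0.14 in COP, with 0.15 in DA. LEW replicate 4 was the brightest LEW array for 21 of the 34 members, and COP replicate 1 the brightest COP array for 14; DA replicate 4 was the brightest DA array for 16 and DA replicate 3 the dimmest for 17. The mean level of 11 cartilage markers, as log2 deviation from the mean of the 16 arrays, reached 0.41 on LEW replicate 4 against -0.49 to -0.01 on the other LEW arrays, and 0.44 on COP replicate 1 against -0.41 to 0.23 on the other COP arrays. On LEW replicate 4 the osteoblast and bone level was 0.23, against -0.08 to -0.02 on the others. The part of these levels in the spread of the members was not tested. Without both arrays (adjusted p under 0.05, test given next) 15 members differed among the strains, and 10 between F344 and LEW. The shares of all genes without these arrays were not computed, so nothing about the members is read from these counts.

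Differences were tested with limma, with Benjamini-Hochberg adjustment across 18625 tested probe sets. Differences are log2 values of the first strain minus the second. Of the 34 tested members, 14 differed among the 4 strains (F-test, adjusted p under 0.05), where 32.9% of all 10548 tested genes did. With the pairwise comparisons added, 18 members differed somewhere, against 40.3% of all genes. F344 against DA gave the most calls, with 10 members higher and 5 lower in F344, against a background of 8.11% higher and 9.20% lower. F344 against LEW gave 4 higher and 2 lower (background 6.96% and 7.54%), and COP against DA 4 higher and 1 lower (5.74% and 6.42%). F344 against COP gave 4 and 4 (10.4% and 10.6%), LEW against COP 1 and 4 (6.41% and 7.72%) and LEW against DA 3 and 2 (4.65% and 5.77%). Comparisons that name the same strain share its arrays. Members whose 4 and 4 arrays were fully apart numbered 9 in F344 against LEW (19.3% of all genes), 7 in COP against DA (16.7%), 10 in F344 against COP (27.0%), 16 in F344 against DA (23.5%), 6 in LEW against COP (17.5%) and 7 in LEW against DA (13.4%). The median size of a member's difference between F344 and DA was 0.21, against 0.14 over all genes, and between F344 and LEW 0.19 against 0.13. Without F344 replicate 2 the count among the 4 strains fell to 9 and that of F344 against COP to 5. For F344 against LEW it was 2 without LEW replicate 2 and 10 without LEW replicate 4. Shares of all genes were not computed with arrays left out, so these changes in counts are not read as results about the members.

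**Figure D2:**
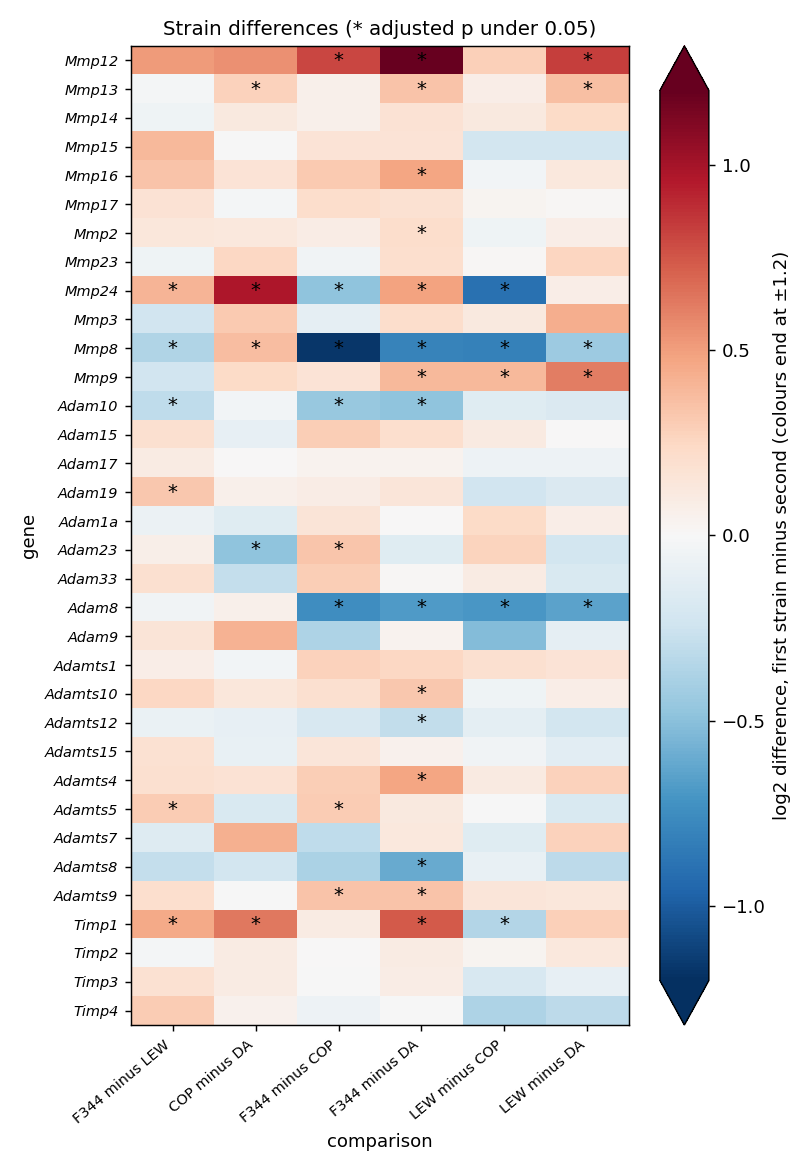
Log2 differences (colour, first strain minus second) of the 34 tested members in the 6 comparisons, with an asterisk where the limma adjusted p was under 0.05. Mmp8 was called in all 6 columns, Mmp24 in 5, and Adam8 and Timp1 in 4 each, and the column of F344 minus DA holds 15 asterisks.

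Among the collagenases, the enzymes that can cut intact fibrillar collagen, Mmp8 differed between every pair of strains. Mmp8, the collagenase stored in neutrophil granules, had signals of 1804, 1876, 1876 and 1848 on the F344 arrays and of 2270, 2643, 2481 and 2162 on the LEW arrays. It had 3858, 4027, 4409 and 4412 in COP and 2822, 3235, 3368 and 3540 in DA. No array of one strain overlapped with those of another, in the order F344, LEW, DA, COP. COP exceeded F344 2.25-fold (log2 difference of F344 minus COP -1.17, SE 0.076, limma adjusted p = 4.51e-10), and LEW exceeded F344 1.29-fold (-0.36, SE 0.076, adjusted p = 0.0024). COP also exceeded LEW (LEW minus COP -0.81, adjusted p = 1.33e-07) and DA (COP minus DA 0.37, adjusted p = 0.00257). All 6 calls held without each array in turn.

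Markers of neutrophils and their precursors also differed between strains, in part in the order of Mmp8. Of 12 listed markers 7 had a named probe set, all above the filter, and their summed signal was 108709 to 113475 in F344, 124486 to 147328 in LEW, 126116 to 150228 in DA and 150729 to 159306 in COP. Camp, a cathelicidin of neutrophil granules, had means of 11228 in F344, 15214 in LEW, 20100 in DA and 23176 in COP, the strain order of Mmp8. Cxcr2 (195, 212, 233 and 241) and S100a9 (61477, 64306, 67779 and 69612) had that order too. Itgam (511 in LEW and 406 in DA), Csf3r (609 and 579) and Lcn2 had DA below LEW, the reverse of Mmp8, and S100a8 had DA (43583) and COP (43486) close together. Of the 7, 5 were lower in F344 than in COP and 0 higher, 3 were lower in F344 than in LEW, and 3 were lower in F344 than in DA. Between COP and DA 4 were higher in COP, between LEW and COP 3 were lower in LEW, and between LEW and DA, where Mmp8 was called at -0.44, 1 was higher and 1 lower in LEW. The mean log2 level of all 7 was 0.13 to 0.31 in LEW and -0.32 to -0.13 in DA. Lcn2 is among the 7 and differs between these strains by far more than the others, with means of 834, 12526, 17160 and 1023 in F344, LEW, COP and DA; without it the mean log2 level of the 6 others, centred on all arrays, was -0.30 to -0.23 in F344, -0.14 to 0.082 in LEW, -0.064 to 0.14 in DA and 0.22 to 0.27 in COP. The part of these markers in the Mmp8 result was not tested. In whole tissue, more cells of a type and more RNA per cell cannot be told apart.

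Mmp13, the collagenase of hypertrophic chondrocytes and osteoblasts, was lower in DA than in each other strain. Its signals were 29691, 30965, 30901 and 31339 in F344, 29976, 30696, 29795 and 34282 in LEW, 32942, 30249, 28043 and 26825 in COP, and 24038, 24787, 22385 and 25913 in DA. The DA arrays lay below every other array, while the other strains overlapped. F344 exceeded DA by 0.34 (SE 0.065, limma adjusted p = 9.03e-04), LEW by 0.36 (adjusted p = 6.13e-04) and COP by 0.28 (adjusted p = 0.00652), that is 1.27-, 1.28- and 1.21-fold. F344 and LEW differed by -0.02 (SE 0.065, adjusted p = 0.886). Of 13 listed cartilage markers 11 were measured, all above the filter; 0 passed in any of the 6 comparisons. Of 8 measured osteoblast and bone markers, 2 were higher in F344 than in DA, 1 was higher in LEW than in DA, and 0 passed between COP and DA; their part in the Mmp13 result was not tested. The mean cartilage marker level on a log2 scale was 0.13 to 0.21 in F344, -0.49 to 0.41 in LEW, -0.41 to 0.44 in COP, with -0.29 to 0.020 in DA. Every F344 array was above every DA array in this level, and the arrays of LEW and COP reached both above and below those of DA; its part in the Mmp13 result was not tested.

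The gelatinases Mmp9 and Mmp2 cut denatured collagen and basement membrane collagen. Mmp9, which osteoclasts and neutrophils carry, had signals of 17142, 18368, 17813 and 17483 in F344 and 18392, 21429, 19167 and 24278 in LEW. It had 18559, 16265, 14312 and 14513 in COP and 14712, 12924, 12722 and 13710 in DA. LEW stood highest and DA lowest, and COP replicate 1 reached the lowest LEW array: LEW exceeded DA 1.53-fold (0.62, SE 0.084, limma adjusted p = 2.44e-05), LEW exceeded COP by 0.39 (adjusted p = 0.00285) and F344 exceeded DA by 0.39 (adjusted p = 0.0027). LEW replicate 4 was the brightest array, and without it LEW exceeded DA by 0.54 and COP by 0.31, both still called. The arrays of LEW all lay above those of F344, but this difference of -0.23 did not pass (adjusted p = 0.0832). It passed without LEW replicate 1 (-0.28, adjusted p = 0.0345) or without COP replicate 1, which enters through the shared spread (-0.23, adjusted p = 0.0487). It also passed with median centring, with array weights and with probe sets averaged (-0.34, adjusted p = 0.0271). Between COP and DA Mmp9 did not pass (0.23, adjusted p = 0.0829) but did without LEW replicate 4 (0.23, adjusted p = 0.0455) and after quantile normalization. Between F344 and COP (0.16, adjusted p = 0.202) it passed without COP replicate 1 (0.24, adjusted p = 0.0489). Of the 9 osteoclast markers listed, 5 were named and 3 passed the filter (Calcr and Tnfrsf11a did not), and 0 of 3 were called in any comparison; their mean log2 levels overlapped, with -0.014 to 0.11 in F344, -0.13 to 0.11 in LEW, -0.084 to 0.16 in COP, with -0.15 to -0.0022 in DA.

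Mmp2, made by stromal cells, had means of 11169 ± 365 in F344, 10247 ± 1291 in LEW, 10531 ± 389 in COP, with 9668 ± 477 in DA (SD, n = 4). It was called only in F344 minus DA (0.21, SE 0.069, limma adjusted p = 0.0448), and that call ended when any of 11 of the 16 arrays was left out, F344 replicates 1 to 4, DA replicates 2 to 4, COP replicates 2 to 4 and LEW replicate 2, with differences of 0.19 to 0.23 and adjusted p up to 0.121. Without LEW replicate 4, Mmp2 was called between F344 and LEW (0.21, adjusted p = 0.0238; 0.13 and adjusted p = 0.235 with it).

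**Figure D3:**
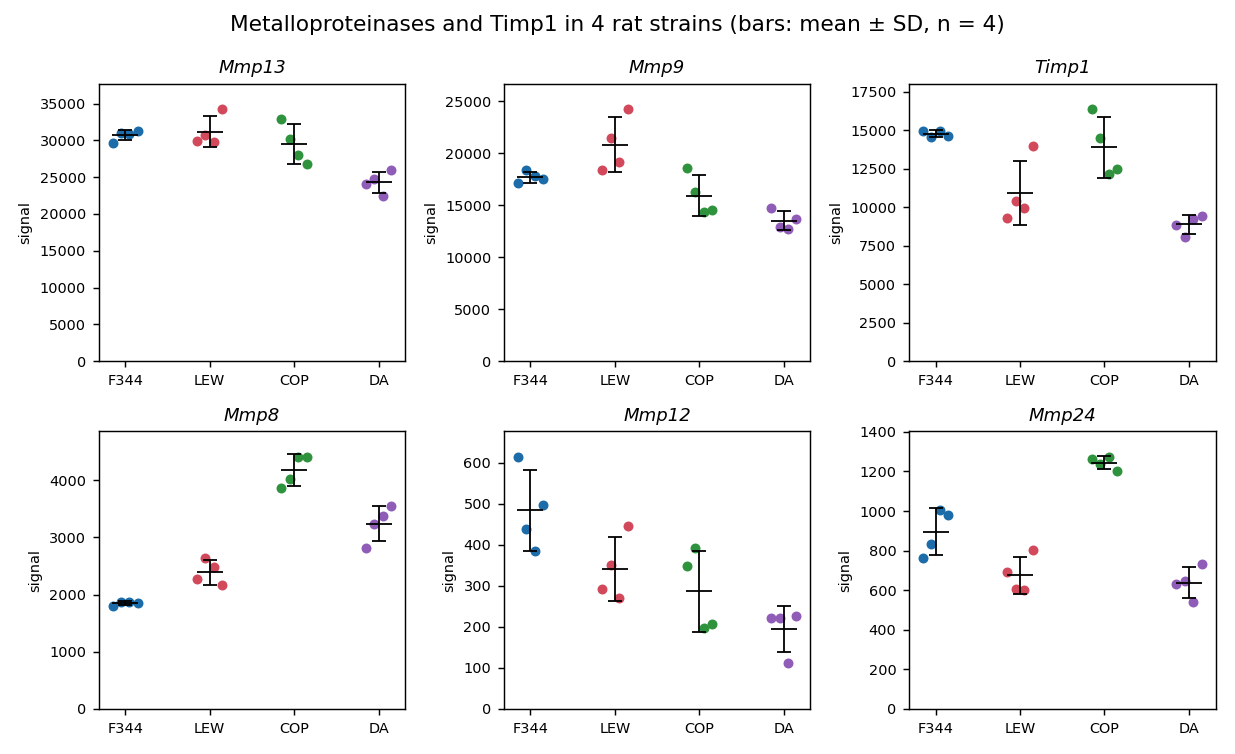
Signals of 5 metalloproteinases and Timp1 on each array (points, linear scale from 0), with the mean and SD of each strain (bars, n = 4). The 4 strains do not overlap for Mmp8, all DA points of Mmp13 lie below the others, and LEW replicate 4 is the highest LEW point of Timp1 at 13964.

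The membrane-type enzymes are held on the cell surface. Mmp14, which activates the proenzyme of Mmp2, did not pass in any comparison over all arrays, with means of 12167 ± 344 in F344, 12662 ± 1075 in LEW, 11784 ± 1825 in COP, with 10759 ± 413 in DA (SD, n = 4); its largest difference was LEW minus DA (0.23, limma adjusted p = 0.0833), which passed without LEW replicate 3 (0.28, adjusted p = 0.0449), COP replicate 1 (0.23, adjusted p = 0.0317) or COP replicate 4 (0.23, adjusted p = 0.0409). Mmp15 and Mmp17 did not pass over all arrays either. Mmp15 had 569, 595, 580 and 587 in F344 and 434, 448, 402 and 505 in LEW, without overlap. Its F344 minus LEW passed without LEW replicate 4, COP replicate 3, or DA replicate 2 or 3. It also passed with array weights, with no intensity trend, with probe sets averaged and in the fit of the 2 strains alone. Mmp16 was highest in F344, at 2096, 2053, 2132 and 2031, against 1425, 1627, 1497 and 2058 in LEW, 2158, 1569, 1595 and 1455 in COP, and 1606, 1523, 1230 and 1663 in DA. The F344 arrays were close together, and in LEW and COP 1 array each, LEW replicate 4 and COP replicate 1, reached the F344 level. Mmp16 passed between F344 and DA (0.47, SE 0.12, adjusted p = 0.00989) but not between F344 and LEW (0.35, adjusted p = 0.064) or COP (0.31, adjusted p = 0.0781). F344 minus LEW passed without LEW replicate 4 (0.46, adjusted p = 0.0099), COP replicate 1 (0.35, adjusted p = 0.0294) or DA replicate 3 (0.35, adjusted p = 0.0473), and F344 minus COP without LEW replicate 4 (0.31, adjusted p = 0.043) or COP replicate 1 (0.43, adjusted p = 0.0106). Both also passed with array weights and in fits of the 2 strains alone.

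Mmp24, a membrane-type enzyme best known from the nervous system, stood highest in COP, with 1261, 1240, 1275 and 1202. Its other signals were 761, 832, 1007 and 980 in F344, 691, 606, 603 and 802 in LEW, and 633, 644, 542 and 734 in DA. The COP arrays lay above all others, and those of LEW and DA overlapped. COP exceeded DA 1.96-fold (0.97, SE 0.11, limma adjusted p = 3.46e-06), LEW minus COP was -0.89 (adjusted p = 8.09e-06), and F344 lay between, 0.49 above DA (adjusted p = 0.00501) and 0.48 below COP (F344 minus COP -0.48, adjusted p = 0.00424). F344 exceeded LEW by 0.41 (adjusted p = 0.0193), a call that ended without F344 replicate 3 or 4 or LEW replicate 2 or 3, with differences of 0.35 to 0.36 and adjusted p up to 0.0765. These calls rest on 1 probe set: the other tested probe set of Mmp24 had means of 490 in F344, 561 in LEW, 461 in COP, with 384 in DA, and was called in 0 comparisons. With the probe sets averaged, COP minus DA was 0.63 and LEW minus COP -0.32 (adjusted p = 0.0456), and the differences of F344 from LEW (0.13) and COP (-0.20) were not called.

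Among the remaining Mmp genes, Mmp12, the elastase of macrophages, fell from F344 to DA. Its signals were 614, 438, 385 and 498 in F344, 292, 351, 270 and 445 in LEW, 348, 393, 198 and 206 in COP, and 220, 221, 112 and 226 in DA. All F344 and LEW arrays lay above those of DA. The difference was 2.55-fold between F344 and DA (1.35, SE 0.25, limma adjusted p = 8.14e-04), 0.80 between F344 and COP (adjusted p = 0.0301) and 0.83 between LEW and DA (adjusted p = 0.0389). The call against COP ended without F344 replicate 1 or 4 or COP replicate 3 or 4 (0.65 to 0.78, adjusted p up to 0.103), and that of LEW minus DA without LEW replicate 2 or 4 or DA replicate 3 (0.58 to 0.81, adjusted p up to 0.147). Both calls also ended with no filter (adjusted p of 0.0567 and 0.0704). That of LEW minus DA ended as well with no intensity trend and in the fit of the 2 strains alone. DA lay at 195 ± 55.4 (SD, n = 4), just above the filter signal of 174. Of 10 listed macrophage and monocyte markers 9 were measured, all above the filter; between F344 and DA 2 were higher and 1 lower in F344, and their mean log2 levels were 0.098 to 0.20 in F344, -0.18 to -0.032 in LEW, -0.13 to -0.039 in COP, with -0.023 to 0.12 in DA. Their part in the Mmp12 result was not tested. Mmp3, stromelysin 1, spanned 238 to 766 in COP alone and did not pass in any comparison, nor did Mmp23. Without DA replicate 1, Mmp23 passed between DA and each of F344, LEW and COP. With probe sets averaged, it passed for COP minus DA and LEW minus DA.

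Of the 4 tested genes of the chromosome 8 cluster, Mmp13 and Mmp12 had their lowest mean in DA, Mmp8 had its lowest in F344 and its highest in COP, and Mmp3 was not called; whether the genes differ in their strain orders was not tested. Mmp8 and Mmp12 differed in opposite directions between F344 and DA (-0.80 and 1.35). Mmp11, stromelysin 3, on chromosome 20, was under the filter, so the fit of the other members did not test it. Like Mmp3, Mmp11 was chosen after its values were seen. Its signals were 192 to 250 in LEW, 215 to 301 in COP, 96.6 to 174 in F344 and 80.7 to 139 in DA. The arrays of LEW and COP thus lay above those of F344 and DA. With no filter Mmp11 was called by the F-test and for F344 minus LEW, COP minus DA, F344 minus COP and LEW minus DA. The same calls were made without DA replicate 2, where Mmp11 passed the filter.

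Of the 9 tested Adam genes, 4 were called by the F-test or in a pair, where 40.3% of all genes were. Adam8, a surface protease of granulocytes and monocytes, divided the strains into 2 pairs. Its signals were 440, 490, 404 and 502 in F344 and 515, 532, 474 and 383 in LEW, against 834, 729, 793 and 713 in COP and 592, 715, 813 and 847 in DA. The arrays of F344 and LEW overlapped, as did those of COP and DA, and there was no overlap across the pairs. F344 minus COP was -0.74 (SE 0.13, limma adjusted p = 2.43e-04), F344 minus DA -0.68 (adjusted p = 7.42e-04), LEW minus COP -0.70 (adjusted p = 5.43e-04) and LEW minus DA -0.64 (adjusted p = 0.00175). Within the pairs the differences were -0.05 (adjusted p = 0.862) and 0.06 (adjusted p = 0.825). All 4 calls held without each array in turn. Adam8 thus was not ordered as Mmp8 was: F344 and LEW, which Mmp8 separated, overlapped in Adam8. The neutrophil marker levels given above lay lowest in F344, and their part in the Adam8 result was not tested.

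Adam10, which releases the outer part of Notch receptors and of many other membrane proteins, was lowest in F344. Its signals were 772, 808, 728 and 865 in F344, 931, 1026, 1084 and 892 in LEW, 1194, 1028, 1008 and 1124 in COP, and 960, 1197, 1169 and 1125 in DA. Every F344 array lay below every other array. F344 minus DA was -0.49 (SE 0.094, limma adjusted p = 0.00102) and F344 minus COP -0.46 (adjusted p = 0.00148). F344 minus LEW was -0.31 (adjusted p = 0.032), and this call ended without F344 replicate 1, 2 or 3 or LEW replicate 2 or 3 (-0.32 to -0.26, adjusted p up to 0.113), and with the replicate number as a block. A different probe set of Adam10 gave the same division, with means of 242 in F344, 377 in LEW, 476 in COP, with 365 in DA, and all 3 differences were called there, F344 minus LEW at -0.65 and F344 minus COP at -0.99. Adam17, which releases tumour necrosis factor from the cell surface, had means of 3926 ± 237, 3660 ± 302, 3828 ± 335 and 3800 ± 141 in F344, LEW, COP and DA (SD, n = 4), and its largest difference was 0.10 (F344 minus LEW, adjusted p = 0.393).

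Adam19, also called meltrin beta, had 1463, 1407, 1443 and 1416 in F344 and 1137, 1019, 1268 and 1167 in LEW, with no overlap, and a difference of 0.32 (SE 0.087, limma adjusted p = 0.0154). Without LEW replicate 2 it was 0.27 (adjusted p = 0.0637). COP had 1586, 1383, 1200 and 1246, and DA 1261, 1384, 1252 and 1274, and no other comparison passed; LEW minus COP (-0.23, adjusted p = 0.0836) passed without LEW replicate 3 or COP replicate 3 (adjusted p of 0.0498 and 0.0414). Its other tested probe set gave a difference of 0.84 between F344 and LEW (adjusted p = 0.00613), and was also called for F344 minus COP (0.81), COP minus DA (-0.66) and LEW minus DA (-0.69), where the first probe set was not. Adam23, a member without protease activity that is best known from neurons, had 1096, 1100, 1148 and 1014 in COP and 1805, 1505, 1378 and 1437 in DA, with 1505, 1551, 1373 and 1110 in F344 and 1091, 1339, 1332 and 1514 in LEW. COP lay below DA without overlap (COP minus DA -0.48, SE 0.11, adjusted p = 0.00606). F344 exceeded COP by 0.34 (adjusted p = 0.0389), and this call ended without F344 replicate 1, 2 or 3 or COP replicate 1, 2 or 4 (0.28 to 0.34, adjusted p up to 0.129). LEW minus COP (0.27, adjusted p = 0.128) passed without LEW replicate 1 (0.36, adjusted p = 0.0413). Adam9, Adam15, Adam33 and Adam1a did not pass in any comparison, but Adam15 and Adam9 did under other settings. Adam15 passed for F344 minus COP without LEW replicate 3 or COP replicate 3. It also passed after quantile normalization, with array weights and in the fit of the 2 strains alone. Adam9 passed for LEW minus COP without LEW replicate 2 or 4, with no intensity trend and with probe sets averaged.

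Of the 9 tested Adamts genes, 6 were called by the F-test or in a pair (40.3% of all genes) and 3 by the F-test (32.9% of all genes), with differences of 0.60 or less in size. Adamts5 and Adamts4 are the main aggrecanases, which cut the aggrecan of cartilage. Adamts5 had 1512, 1649, 1490 and 1536 in F344, 1177, 1158, 1262 and 1436 in LEW, 1242, 1223, 1322 and 1232 in COP, and 1605, 1454, 1248 and 1419 in DA. F344 lay above LEW (0.30, SE 0.084, limma adjusted p = 0.0187) and above COP (0.30, adjusted p = 0.014) without overlap, while DA overlapped with all. The first call ended without F344 replicate 2 or LEW replicate 1 or 2 (0.26 to 0.27, adjusted p up to 0.0671), and the second without F344 replicate 2 (0.27, adjusted p = 0.052). The other probe set of Adamts5 gave 0.32 for F344 minus LEW (adjusted p = 0.0581) and was called for LEW minus DA (-0.43, adjusted p = 0.015). Adamts4 had 616, 594, 610 and 619 in F344, above all arrays of LEW (486, 526, 543 and 585), COP (517, 530, 473 and 469) and DA (444, 442, 346 and 554). It passed against DA (0.47, SE 0.12, adjusted p = 0.0104) but not against LEW (0.19, adjusted p = 0.335) or COP (0.30, adjusted p = 0.0921). F344 minus COP passed with array weights and in the fit of the 2 strains alone. LEW minus DA (0.28, adjusted p = 0.17) passed without DA replicate 4 (0.39, adjusted p = 0.0399).

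Adamts9, a versican- and aggrecan-cutting member on chromosome 4, had 1535, 1683, 1573 and 1581 in F344, 1306, 1381, 1207 and 1699 in LEW, 1343, 1292, 1166 and 1221 in COP, and 1102, 1364, 1139 and 1469 in DA. F344 lay above COP (0.34, SE 0.10, limma adjusted p = 0.0215) and DA (0.34, adjusted p = 0.0284), while LEW replicate 4 reached above F344 and the difference from LEW did not pass (0.20, adjusted p = 0.225). The call against COP ended without F344 replicate 2 or COP replicate 3 (0.31 to 0.32, adjusted p up to 0.0645), and that against DA without F344 replicate 2, 3 or 4 or DA replicate 1 or 3 (0.27 to 0.34, adjusted p up to 0.0904). Without LEW replicate 4, Adamts9 was called between F344 and LEW (0.30, adjusted p = 0.0425). The other tested probe set of Adamts9 was called in 0 comparisons. With the probe sets averaged, both calls of Adamts9 were lost, at 0.26 for F344 minus COP (adjusted p = 0.189) and 0.20 for F344 minus DA (adjusted p = 0.333).

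Adamts8, Adamts10 and Adamts12 were called only between F344 and DA. Adamts8 was lower in F344, with 292, 268, 354 and 361 against 543, 341, 520 and 550 in DA (-0.60, SE 0.19, limma adjusted p = 0.0324), where DA replicate 2 overlapped with F344; the call ended without F344 replicate 1 or 2 or DA replicate 1, 3 or 4 (-0.56 to -0.52, adjusted p up to 0.1). Adamts12, which can cut cartilage oligomeric matrix protein, was lower in F344 (-0.29, SE 0.0996, adjusted p = 0.0484), and Adamts10, a partner of fibrillin microfibrils, higher (0.33, SE 0.11, adjusted p = 0.0462). The other tested probe set of Adamts10 gave 0.04 (adjusted p = 0.899), and the average of its probe sets 0.18 (adjusted p = 0.236). The call of Adamts10 ended when any of 9 arrays was left out (F344 replicates 1 to 3, COP replicates 2 to 4, DA replicates 1 to 3; adjusted p up to 0.159) and that of Adamts12 when any of 11 was (F344 replicates 1 to 3, LEW replicate 2, COP replicates 1, 3 and 4, DA replicates 1 to 4; adjusted p up to 0.134). Adamts1, Adamts7 and Adamts15 did not pass, though Adamts1 passed for F344 minus COP without COP replicate 4.

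**Figure D4:**
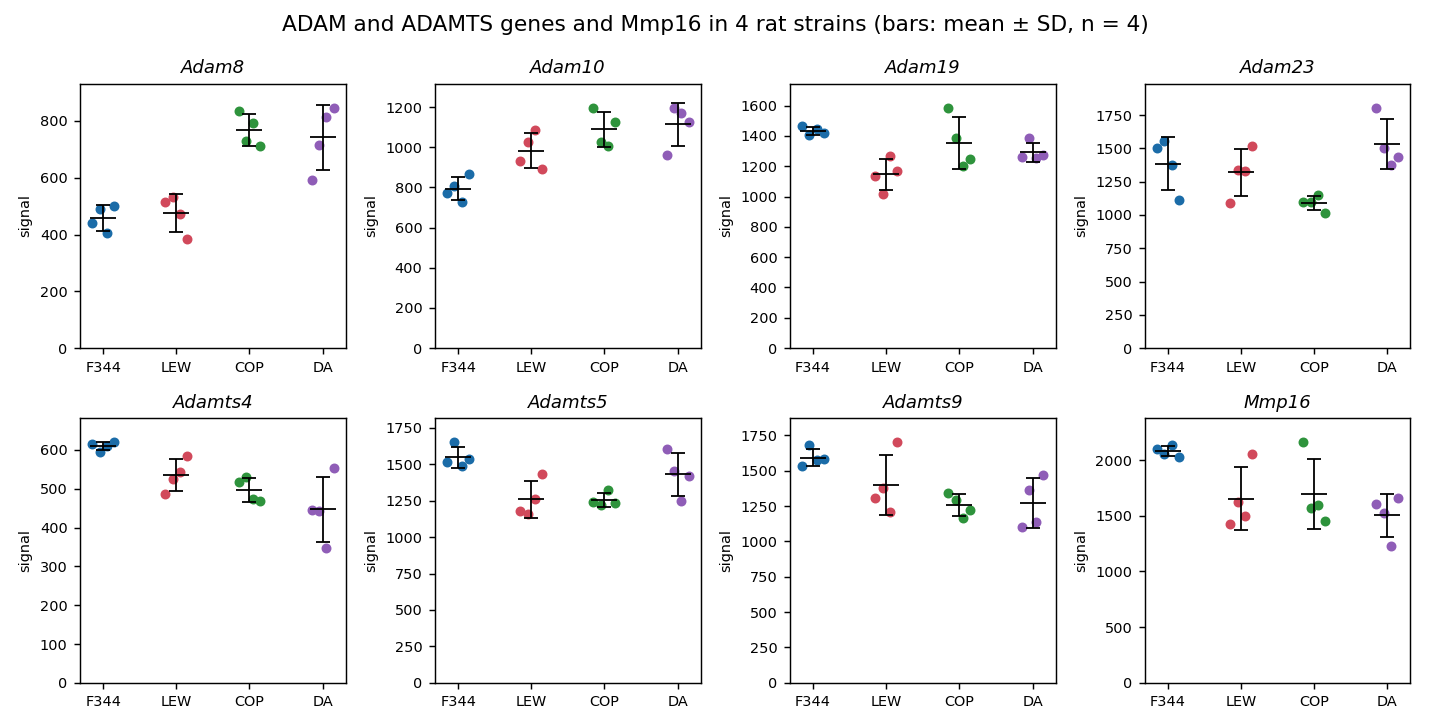
Signals of 4 Adam genes, 3 Adamts genes and Mmp16 on each array (points, linear scale from 0), with the mean and SD of each strain (bars, n = 4). For Adam8 the arrays of F344 and LEW lie at 383 to 532 and those of COP and DA at 592 to 847, and for Adam10 all F344 points lie below the other strains.

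Among the inhibitors only Timp1 was called. Timp1, a secreted inhibitor encoded on the X chromosome, had 14960, 14572, 14948 and 14621 in F344, 9310, 10417, 9976 and 13964 in LEW, 16385, 14516, 12145 and 12460 in COP, and 8833, 8055, 9242 and 9398 in DA. F344 and COP were high and DA was low, with LEW between, and LEW replicate 4 stood far above the other LEW arrays. F344 exceeded LEW 1.37-fold (0.45, SE 0.10, limma adjusted p = 0.00424), and without LEW replicate 4 by 0.58 (adjusted p = 5.41e-05). F344 exceeded DA 1.67-fold (0.74, adjusted p = 2.82e-05) and COP exceeded DA 1.55-fold (0.64, adjusted p = 1.99e-04), both without overlap. LEW minus COP was -0.35 (adjusted p = 0.0229), a call that ended without LEW replicate 1, 2 or 3 or COP replicate 1 or 2 (-0.34 to -0.27, adjusted p up to 0.0949), while F344 and COP (0.10, adjusted p = 0.553) and LEW and DA (0.28, adjusted p = 0.0884) did not pass. LEW minus DA was 0.16 without LEW replicate 4 (adjusted p = 0.296) and passed without LEW replicate 1 (0.35, adjusted p = 0.0334).

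Timp2, which helps Mmp14 to activate the proenzyme of Mmp2, had 11983, 13320, 12027 and 11530 in F344, 11796, 11727, 12103 and 14082 in LEW, 13691, 12083, 11685 and 11223 in COP, and 11278, 11026, 11102 and 12106 in DA. All strains overlapped and no comparison passed, the largest being LEW minus DA at 0.12 (limma adjusted p = 0.306). Its other, dimmer probe set was higher in COP (means of 1369 in COP, 1014 in F344, 939 in LEW and 1089 in DA) and was called for LEW minus COP (-0.54), F344 minus COP (-0.43) and COP minus DA (0.33). Timp3, which binds to the matrix and also inhibits Adam17 and the aggrecanases, had 6578, 5502, 5936 and 5721 in F344, 4891, 5150, 5317 and 5498 in LEW, 5650, 5722, 6366 and 6066 in COP, and 6163, 5387, 5644 and 5097 in DA. LEW lay below F344 and COP without overlap, but neither difference passed (F344 minus LEW 0.18, adjusted p = 0.0794, and LEW minus COP -0.19, adjusted p = 0.0717). With array weights both of these Timp3 differences passed. LEW minus COP of Timp3 also passed after quantile normalization and without LEW replicate 4 and COP replicate 1 together. Of its 3 other tested probe sets, 1 was called, for F344 minus COP (-0.65, adjusted p = 0.0288). Timp4, on chromosome 4, had 213, 335, 319 and 321 in F344, 239, 228, 228 and 250 in LEW, 260, 335, 316 and 313 in COP, and 310, 273, 251 and 347 in DA. The LEW arrays lay below those of COP and DA, and no comparison passed (LEW minus COP -0.37, adjusted p = 0.151).

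The log2 signal of an enzyme minus that of Timp1 on the same array, centred on all 16 arrays, is given as a description without a test; only its change between strains can be read. For Mmp9 it was 0.44 ± 0.10 in LEW, 0.10 ± 0.13 in DA, -0.24 ± 0.0565 in F344 and -0.30 ± 0.034 in COP (SD, n = 4), and all LEW arrays lay above all arrays of the other strains. For Mmp13 it was 0.25 ± 0.17 in LEW, 0.17 ± 0.14 in DA, -0.23 ± 0.050 in F344 and -0.19 ± 0.085 in COP (SD, n = 4). For Mmp14, not called over all arrays, it was 0.23 ± 0.19 in LEW, 0.28 ± 0.088 in DA, -0.28 ± 0.039 in F344 and -0.23 ± 0.086 in COP. For Mmp2 it was 0.11 ± 0.10 in LEW, 0.31 ± 0.11 in DA, -0.22 ± 0.061 in F344 and -0.20 ± 0.16 in COP (SD, n = 4). The means of LEW and DA were thus above those of F344 and COP for each enzyme. Timp1 is subtracted in all these values, and its own means were highest in F344 and COP. The part of Timp1 in this split was not tested.

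On chromosome 4, to which the locus of the series was mapped, lay 3 of the 51 genes: Adamts9 and Timp4, whose values are given above and which did not pass between F344 and LEW, and Adam22, under the filter. The largest group, 10 genes, lay on chromosome 8.

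A second look at the same RNA comes from other probe sets, which 11 of the tested members had above the filter, 13 in all. For the 17 combinations of such a probe set and a called comparison, 14 had the same sign as the probe set that represented the gene, 7 were also called in that direction, and 0 were called in the opposite direction. The called agreements came from Mmp9, Adam10 and Adam19. For Mmp9 the other probe set was also called between F344 and LEW (-0.46, limma adjusted p = 0.0121), where the first did not pass. The 3 opposite signs among the 17 all came from Mmp24. Comparisons in which the representing probe set was not called are outside the 17. There, other probe sets were called with the opposite sign for Timp2 (F344 minus COP -0.43 against 0.01, LEW minus COP -0.54 against 0.03) and Adam19 (COP minus DA -0.66 against 0.06). With the same sign they were called there for Mmp9, Adam19, Adamts5, Timp2 and Timp3.

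**Figure D5:**
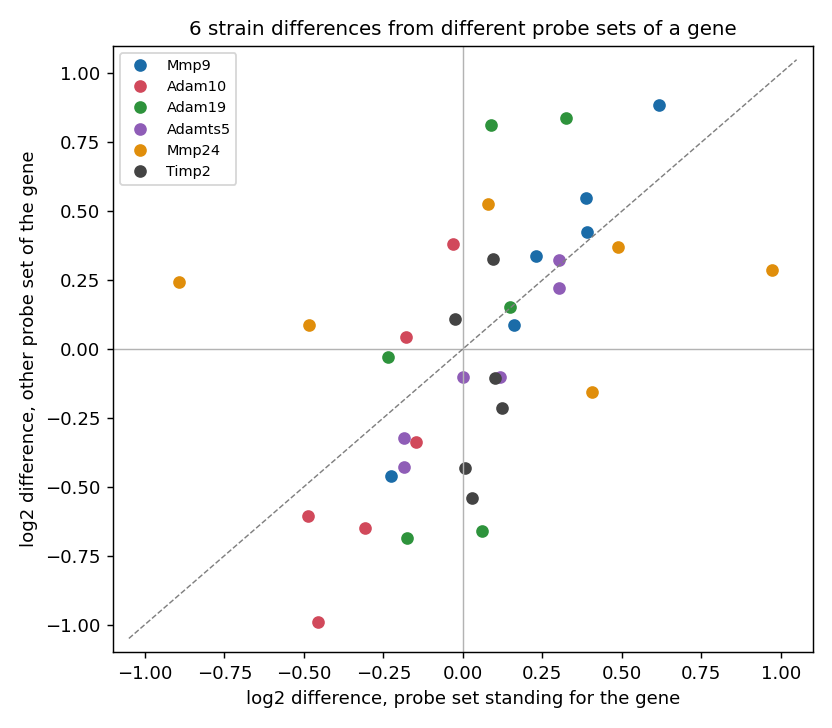
Log2 differences of the 6 strain comparisons from the probe set that represents a gene (horizontal) and from another tested probe set of the same gene (vertical), with equality as a dashed line. Points of Mmp9 lie in the 2 quadrants of equal sign, those of Mmp24 with values of -0.89 and -0.48 do not, and the second probe set of Timp2 falls to -0.54 where the first stays near 0.

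Genes that act with these proteases were described from lists, by counts. Of all genes 32.9% differed by the F-test, 6.96% were higher and 7.54% lower in F344 than in LEW, and 5.74% were higher and 6.42% lower in COP than in DA; nothing is read from a count near these shares. In the plasmin system and the activators of proenzymes, 13 of 16 listed genes were tested and 6 differed among the strains (0 higher and 1 lower in F344 than in LEW, 4 higher and 1 lower in COP than in DA). Plat, tissue plasminogen activator, was lower in DA than in F344, LEW and COP by 0.46, 0.45 and 0.38, and Plaur, the urokinase receptor, was highest in COP (LEW minus COP -0.70, limma adjusted p = 0.00121). Serpinb2, an inhibitor of urokinase, was lower in COP than in DA (-1.01, adjusted p = 0.00243). Of other inhibitors, 9 of 17 were tested and 6 differed (2 higher and 0 lower in F344 than in LEW, 5 higher and 1 lower in COP than in DA). A2m, which traps proteases of all classes and lies on chromosome 4, had its lowest mean in LEW, 613 against 992 in F344 and 1057 in COP. Slpi, an inhibitor of neutrophil elastase, also had its lowest mean in LEW (F344 minus LEW 0.81), and Tfpi2 was lower in DA than in F344 by 0.58.

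Of other matrix proteases 14 of 21 were tested and 7 differed (2 higher and 1 lower in F344 than in LEW, 1 higher and 2 lower in COP than in DA). Prss35, a secreted serine protease-like protein, was higher in DA than in any other strain, with means of 3886 in DA, 888 in COP, 453 in LEW and 435 in F344. Htra3, a secreted serine protease, was lower in DA than in F344 (F344 minus DA 0.52) and LEW, and Ctsd, a lysosomal protease, was higher in LEW than in F344 and COP. Of ADAM and ADAMTS relatives and partners 11 of 16 were tested and 4 differed. Among them Tspan33 and Tspan5, tetraspanins that bind Adam10, were higher in F344 than in LEW by 0.44 and 0.41. Both were also called higher in F344 than in COP and in DA. Adam10 was called lower in F344 in each of these comparisons, though its call against LEW ended without some arrays, as given above. Rhbdf1, an inactive rhomboid that binds Adam17, was highest in LEW (F344 minus LEW -0.55). Of cell surface substrates of ADAM shedding 17 of 27 were tested and 7 differed. Il6r, a receptor released by Adam10 and Adam17, had means of 469 in F344, 556 in LEW, 799 in DA and 945 in COP; Mertk, a receptor of macrophages, was lowest in LEW at 302, and Egf was lower in COP, at 460, than in F344 and DA.

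Of matrix substrates, 25 of 29 were tested and 4 differed among the strains (2 higher and 0 lower in F344 than in LEW, 0 in either direction between COP and DA). Lama4, a laminin chain of vessels, was higher in F344 than in LEW by 0.70, Vwf was lower in F344 than in DA, and Fbn2, a fibrillin, lower in LEW than in COP (-0.89). Of inducers and repressors of Mmp genes 13 of 22 were tested and 6 differed. Fos, a subunit of AP-1, had means of 2430 in F344, 1352 in LEW, 2004 in COP, with 1450 in DA; its arrays of F344 lay above those of LEW and DA. Pth1r, the receptor of parathyroid hormone, was higher in F344 than in DA by 0.42, and Il1b was lower (-0.62).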

How the data were processed

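Each deposited value is a signal intensity, linear and not log-transformed. Per the submitters' processing notes the tool was MAS5; its version is not stated there, and presence calls were not used. Deposited intensity values were already scaled: the 2% trimmed mean was near 1000 everywhere, and array medians were 303 to 325. Of 31099 probe sets, 57 controls were left out. Names came from the platform annotation (20826 probe sets with 1 symbol, 436 with several, 9780 with none); all 51 member identifiers matched RefSeq genes of GRCr8. No build was given for the array.

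Signals below 1 were set to 1, log2 was taken, and probe sets under the 40th percentile of the mean were left out, which kept 18625. limma 3.58.1 (R 4.3.3) estimated the 4 strain means jointly, with an intensity trend (12 residual degrees of freedom); p-values are two-sided, Benjamini-Hochberg adjusted over kept probe sets, threshold 0.05. Shares of all genes use the probe set with the highest mean of each of 10548 genes. The fit was tested on simulated data. Named were members called in any test, the 10 with the highest mean signal, all Timp genes and members on chromosome 4, and of each related list up to 3 genes with the largest called difference. The members, lists and comparisons were chosen with earlier results of these data known. Alternatives were quantile normalization, median centring, a pseudocount of 19.3 (10th percentile), a filter at the 60th percentile or none, no trend, weighted arrays, a block on replicate number, fits of only the 2 strains compared, averaging all probe sets of a gene, and leaving out each array; leaving out LEW replicate 4 with COP replicate 1 was added after seeing the data. Figures: matplotlib 3.10.9.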

Additional observations from a re-analysis of the deposited data

Results flagged for a closer look

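In 3 of the 92 groups of 4 arrays examined for the named members, 1 array stood apart, where chance flags about 1 in 20 such groups. Mmp12 on DA replicate 3 had a signal of 112 against 220 to 226 on the other DA arrays, a gap of 0.965 of the group's log2 range. Adamts8 on DA replicate 2 had 341 against 520 to 550 (0.884), and Timp4 on F344 replicate 1 had 213 against 319 to 335 (0.894). Each of the 3 was the lowest array of its strain.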

How the results depend on the processing

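Of the 44 called differences of single members, 28 kept direction and call under all settings that tested the gene. The call was lost under at least 1 setting for 16, and 0 changed sign. The filter at the 60th percentile left out Mmp12, Adamts8 and Adamts4, so their calls were not tested there. Shares of all genes were computed only for the fit of the Results. No count given here under another setting is read as a result about the members. Leaving out 1 array gave 9 to 15 members among the 4 strains, 2 to 10 for F344 minus LEW, 5 to 6 for COP minus DA, 5 to 9 for F344 minus COP, 10 to 15 for F344 minus DA, 4 to 6 for LEW minus COP and 4 to 6 for LEW minus DA. F344 minus LEW gave 10 members with array weights, and also 10 without LEW replicate 4 and COP replicate 1 together. Averaging all probe sets of a gene gave 8 members for LEW minus DA; it turned Timp2 to -0.21 for F344 minus COP (from 0.01) and to -0.26 for LEW minus COP (from 0.03), where a dimmer probe set with other values enters the mean, and took Mmp24 to 0.13 for F344 minus LEW and -0.20 for F344 minus COP, both not called, LEW minus COP from -0.89 to -0.32 and COP minus DA from 0.97 to 0.63. With the replicate number as a block, 13 members differed among the strains and 5, 5, 7, 14, 5 and 5 in the comparisons in the order F344 minus LEW, COP minus DA, F344 minus COP, F344 minus DA, LEW minus COP and LEW minus DA; lost were Adam10 for F344 minus LEW, Adam23 for F344 minus COP and Mmp2 for F344 minus DA. Same-numbered arrays did not deviate together (correlations -0.17 to 0.088 over 24 pairs, and 4 of 16 arrays closest to their own number), so no pairing by number was seen. The labels do not say what the replicate numbers stand for. Quantile normalization and median centring moved the median of all probe sets by at most 0.037. Without LEW replicate 4 and COP replicate 1 together, Timp3 was called for LEW minus COP (-0.24, adjusted p = 0.048).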
